A study of Homo sapiens with 3 samples.

Results

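The 44 cholesterol and fatty acid synthesis genes were taken by gene symbol from a deposited table of 50868 genes, and all 44 were found. They cover the sterol-sensing machinery, the mevalonate and sterol enzymes, sterol transport and storage, fatty acid synthesis and its modifying enzymes, and the acyl-CoA synthetases with lipin 1. A mean level of at least 1 FPKM (fragments scaled by gene length and by the library's counted total) was reached by 40 of the 44, and by 11103 genes in all. The 4 genes below that level were MBTPS2, ELOVL5, ELOVL6 and FADS2. All ratios below are over the 40 genes unless a gene is named as being under this minimum.

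RNA was sequenced from the established human gastric carcinoma line HGC-27, of undifferentiated type, in 3 groups of 1 library each. The groups were cells given an siRNA against the interferon-response factor IRF3, cells given an siRNA against YAP, the transcriptional coactivator held in check by the Hippo pathway, and cells given a control siRNA. All were at passage 6 and were harvested 48 h after transfection, and no other agent is named in the labels. Protein was not measured here, and in bulk RNA fewer cells with a transcript and less of it per cell cannot be told apart. With 1 library per group no difference below has a replicate check, no test across samples was possible and no p-value is given.

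Cells make cholesterol from acetyl-CoA through mevalonate, farnesyl diphosphate, squalene and lanosterol, and make palmitate from acetyl-CoA through malonyl-CoA. Both routes are switched on by the SREBP transcription factors, which are held in the endoplasmic reticulum by SCAP and the INSIG proteins while sterol is plentiful and are released by proteolysis in the Golgi when it runs low. The liver X receptors work on the other side of the balance and switch on sterol export.

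The gene counts summed to 14941556 for IRF3 siRNA, 14385959 for YAP siRNA and 13949401 for the control siRNA. YAP1 had 3.58 FPKM with IRF3 siRNA and 2.23 FPKM with YAP siRNA, against 5.89 FPKM in control cells. IRF3 had 2.90 FPKM with IRF3 siRNA and 3.86 FPKM with YAP siRNA, against 3.55 FPKM in control cells, and it shares exon sequence with BCL2L12. The log2 ratio of IRF3 to control was -0.22 in the library of its own siRNA, while that of YAP1 was -1.09 with YAP siRNA and -0.59 with IRF3 siRNA. The 9 epithelial markers, EPCAM, CDH1 and 5 keratins among them, were all under 1 FPKM in every library, and the gastric markers TFF1, TFF2, MUC6 and GKN1 were listed at 0. CDX2, an intestinal transcription factor also seen in gastric cancer, had 2.18 and 2.51 FPKM with IRF3 and YAP siRNA, against 2.99 FPKM in control cells. Of 4 mesenchymal markers, VIM had 450.6 and 469.0 FPKM with IRF3 and YAP siRNA, against 511.2 FPKM, FN1 had 6.16 and 7.14 FPKM, against 9.33 FPKM, and CDH2 and ZEB1 were under 1 FPKM in every library. Adipocyte and hepatocyte markers, from cell types with strong lipid synthesis, were all under 1 FPKM, with ADIPOQ, LEP and APOB listed at 0.

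SCD was by far the most abundant gene of the set. Stearoyl-CoA desaturase, its product, makes monounsaturated fatty acids. It stood at 699.6 FPKM with IRF3 siRNA and 780.4 FPKM with YAP siRNA, against 1090.3 FPKM in control cells, rank 47, rank 40 and rank 29 of all genes in those libraries. Its counts were 0.375% of all counts with IRF3 siRNA (95% Wilson interval 0.372 to 0.378), 0.418% with YAP siRNA (0.415 to 0.422) and 0.585% in control cells (0.581 to 0.589). The 44 genes together took 1.147% of counts in IRF3 siRNA cells, 1.211% in YAP siRNA cells and 1.418% in control cells, so SCD carried a large part of the set's counts in each library. Such intervals cover counting error only, and with 1 library per group they hold no spread between samples. They may be too narrow even for counting error, since PCR copies are not independent molecules.

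FASN and SQLE came next in deposited FPKM. Levels of different genes are compared here on the gene lengths behind those values, which were not checked. FASN, the fatty acid synthase, had 130.4 FPKM with IRF3 siRNA and 126.6 FPKM with YAP siRNA, against 135.5 FPKM in control cells. SQLE, the squalene epoxidase, had 117.0 FPKM with IRF3 siRNA and 124.4 FPKM with YAP siRNA, against 146.3 FPKM in control cells. At the other end stood related genes of the same families. ELOVL5 and ELOVL6, elongases of polyunsaturated and of saturated chains, were between 0.230 and 0.663 FPKM in all libraries, and FADS2, the desaturase that acts before FADS1, was between 0.561 and 0.763 FPKM. Among the paralogues, ACACA, the cytosolic acetyl-CoA carboxylase, had 14.4 FPKM in control cells and the mitochondria-associated ACACB had 1.60 FPKM, and INSIG1 had 31.4 FPKM where INSIG2 had 2.53 FPKM. The plot of levels by library shows the full range.

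**Figure D1:**
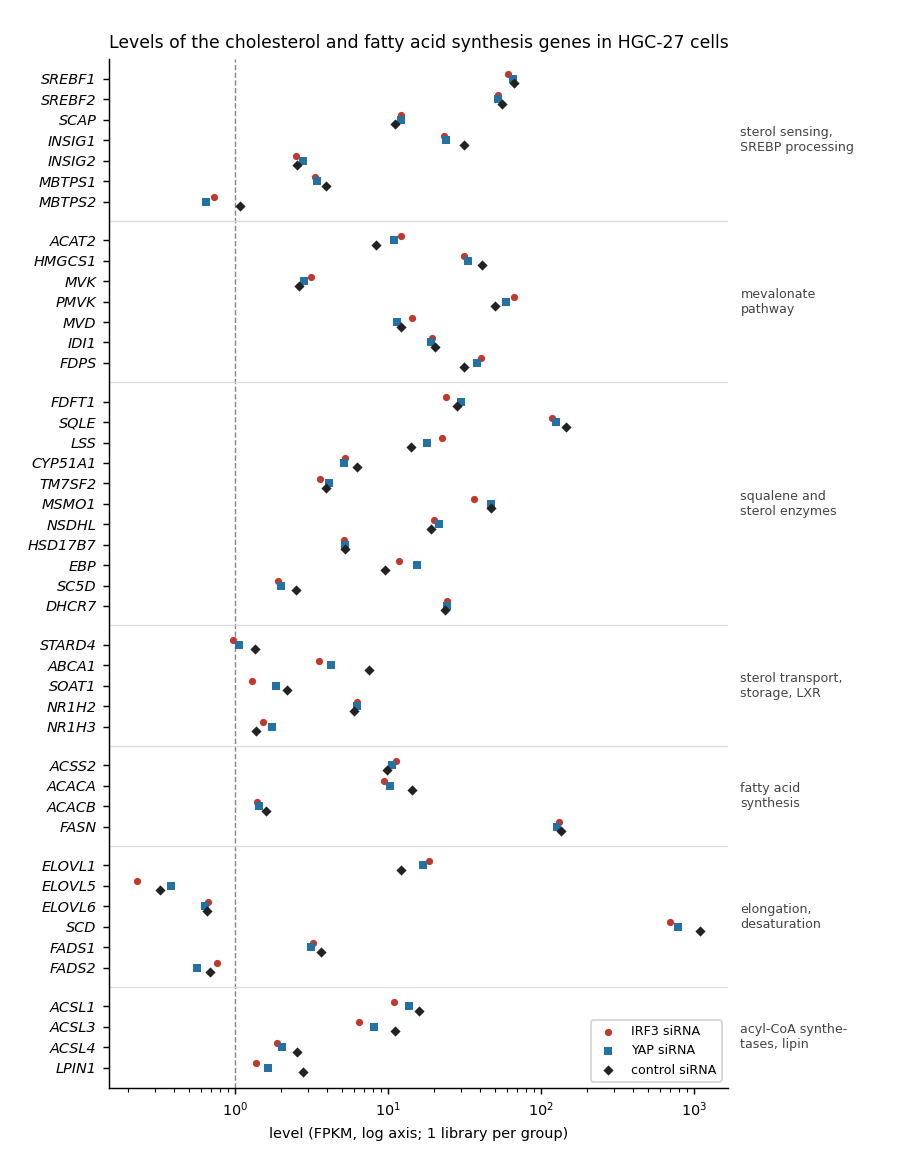
Level of each of the 44 genes in FPKM on a log axis, 1 point per library (IRF3 siRNA, YAP siRNA, control siRNA), grouped by role, with a dashed line at 1 FPKM. SCD lies far to the right at 699.6, 780.4 and 1090.3 FPKM in IRF3 siRNA, YAP siRNA and control cells, and the 3 points of most genes nearly coincide.

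The promoters of the set were read from RefSeq (build GRCh38.p14), which lists 40 of the 44 genes in the table used (FDFT1, FASN, SQLE and ACAT2 are named only). The 250 bases before the listed start nearest to the deposited gene's 5' end were searched on both strands for 3 motifs. These were TCACNCCAC, a core of the sterol regulatory element bound by SREBPs, CCAAT, the NF-Y box, and GGGCGG, the Sp1 box. TCACNCCAC was found in 1 of 40 promoters (2.5%), that of SREBF2, 133 bases before its start, and in 0.883% of the 35116 promoters of the table. CCAAT was found in 21 of 40 (52.5%, against 32% of all promoters) and GGGCGG in 31 of 40 (77.5%, against 42.6%). The 40 are 1 promoter per gene, while the 35116 include every listed start of every gene, expressed or not. The shares are thus of unlike sets. Matches of such short words are descriptions and not binding sites. The 6 promoters below belong to genes that the results turn on: the regulators SREBF2 and INSIG1, SCD and ABCA1, which were lower with both siRNAs, and LSS and ELOVL1, which were higher with both. Each is given from 5' to 3' on the gene's strand, with the 150 bases up to the start, and capitals mark the motif matches on either strand.
SREBF2 (chr22:41832955-41833104, plus strand): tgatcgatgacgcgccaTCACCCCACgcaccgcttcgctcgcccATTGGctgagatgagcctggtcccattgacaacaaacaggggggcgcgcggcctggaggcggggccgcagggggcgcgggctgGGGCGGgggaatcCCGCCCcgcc
INSIG1 (chr7:155297728-155297877, plus strand): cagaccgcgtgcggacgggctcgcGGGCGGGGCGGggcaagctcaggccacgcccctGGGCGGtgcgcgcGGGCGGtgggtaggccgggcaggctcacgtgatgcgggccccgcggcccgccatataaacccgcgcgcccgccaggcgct
SCD (chr10:100347083-100347232, plus strand): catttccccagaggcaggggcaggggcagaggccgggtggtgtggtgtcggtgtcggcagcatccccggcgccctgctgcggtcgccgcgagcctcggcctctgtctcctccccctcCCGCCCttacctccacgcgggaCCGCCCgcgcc
ABCA1 (chr9:104928156-104928305, minus strand): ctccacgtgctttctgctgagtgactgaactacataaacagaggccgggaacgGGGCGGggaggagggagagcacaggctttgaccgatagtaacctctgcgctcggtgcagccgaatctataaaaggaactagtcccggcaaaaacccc
LSS (chr21:46228775-46228924, minus strand): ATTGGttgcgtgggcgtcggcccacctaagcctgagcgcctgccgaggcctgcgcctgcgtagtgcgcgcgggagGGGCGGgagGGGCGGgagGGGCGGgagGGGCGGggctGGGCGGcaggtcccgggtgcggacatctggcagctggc
ELOVL1 (chr1:43368012-43368161, minus strand): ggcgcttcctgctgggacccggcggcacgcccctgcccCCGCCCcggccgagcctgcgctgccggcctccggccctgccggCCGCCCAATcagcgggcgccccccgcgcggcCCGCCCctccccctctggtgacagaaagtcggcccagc
In these 150 bases SREBF2 alone holds TCACNCCAC. GGGCGG has 5 matches in LSS, 4 in INSIG1, 3 in ELOVL1, 2 each in SCD and SREBF2 and 1 in ABCA1. INSIG1, SCD and ABCA1 show no CCAAT in the bases printed, while SREBF2, LSS and ELOVL1 show 1 each. The 250 bases searched do hold CCAAT further upstream in INSIG1 (170 bases before the start) and in SCD (229 and 186 bases). Further GGGCGG matches also lie upstream of the bases printed in INSIG1, ABCA1, LSS and ELOVL1.

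No gene of the set was 2-fold different from control with either siRNA, on the scale of log2(FPKM + 1), which understates the change of low genes. Among all genes, 0.387% were at least 2-fold higher and 0.612% at least 2-fold lower with IRF3 siRNA, and 0.351% and 0.468% with YAP siRNA. At 1.5-fold, LSS was higher with IRF3 siRNA (1 of 40, against 1.59% of all genes) and ABCA1, ACSL3, LPIN1 and SCD were lower (4 of 40, against 5.88%). As ratios of counts, with no pseudocount, ABCA1 and LPIN1 were past 2-fold with IRF3 siRNA, at 0.475 and 0.487, with counting intervals that reached to less than 2-fold. On that scale 3.08% of all genes were at least 2-fold lower and 1% at least 2-fold higher. With YAP siRNA, EBP was at least 1.5-fold higher (1 of 40, against 1.59%) and ABCA1 lower (1 of 40, against 4.64%). The 1.5-fold counts were of 1 to 4 genes, too few to set apart from the shares of all genes.

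Both sets of ratios use the same control library, so they are given side by side and are not independent. The median log2 ratio of the 40 genes was -0.11 with IRF3 siRNA, where that of all genes was -0.03. It was -0.08 with YAP siRNA, where that of all genes was -0.02. Scaling by TMM factors or DESeq2 size factors raised the median of all genes. The IRF3 siRNA median of the 40 genes was then -0.02 and -0.01, where that of all genes was 0.06 and 0.07. The YAP siRNA median was 0.00 with both scalings, where that of all genes was 0.06 and 0.05, so the median of the 40 genes was below that of all genes. The ratio of counts, scaled by the column totals, had a 95% counting interval wholly below 1 for 22 of 40 genes with IRF3 siRNA (32.6% of all genes) and wholly above 1 for 10 (24.3%). With YAP siRNA the interval was wholly below 1 for 19 (30.2%) and wholly above 1 for 11 (22.2%). The set's median count per library was 1182, against 468.7 over all genes, and a higher count gives a narrower interval. The plot of ratios to control shows both directions in most groups of genes.

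**Figure D2:**
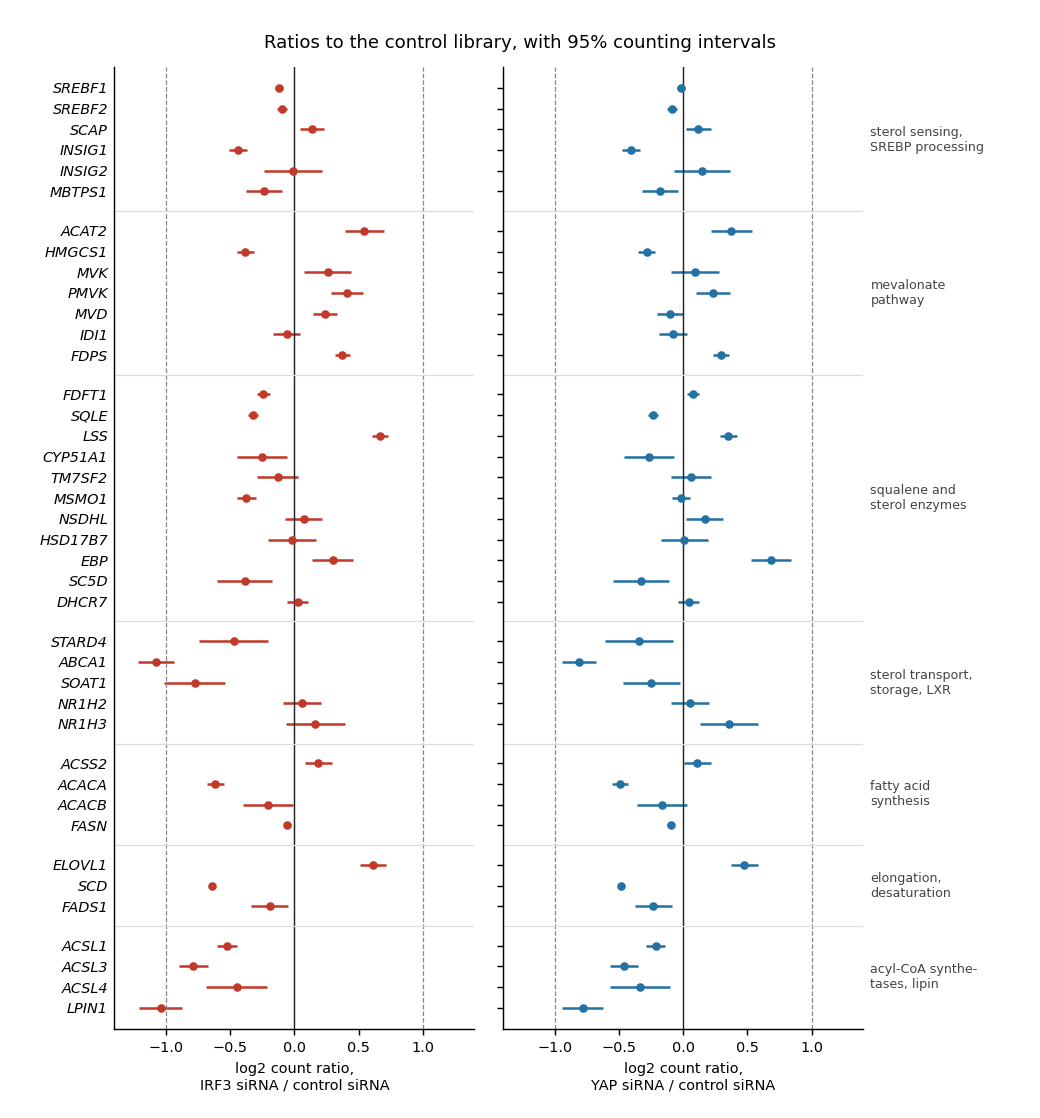
Log2 ratio of counts to the control library for the 40 genes kept, with IRF3 siRNA at the left and YAP siRNA at the right. Points are ratios scaled by the column totals, bars are 95% counting intervals, dashed lines mark 2-fold, and genes are grouped by role. The acyl-CoA synthetases and LPIN1 lie left of 0 in both panels, and LSS, EBP, ELOVL1 and PMVK lie right of it.

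Of the regulators of the pathway above the minimum level, INSIG1 lay furthest from control. SREBF1, which encodes the SREBP that mainly drives fatty acid genes, had 61.1 FPKM with IRF3 siRNA and 65.6 FPKM with YAP siRNA, against 66.4 FPKM in control cells. SREBF2, which encodes the SREBP that mainly drives sterol genes, had 51.9 FPKM with IRF3 siRNA and 52.1 FPKM with YAP siRNA, against 55.4 FPKM in control cells. Their log2 ratios to control lay between -0.12 and -0.02. With TMM scaling SREBF2 was at 0.01 and 0.00 in IRF3 and YAP siRNA cells and SREBF1 at -0.02 and 0.07, beside a median of all genes of 0.06 in both. With the trend in gene properties described further on removed, the IRF3 siRNA values were -0.20 for SREBF1 and -0.16 for SREBF2, and the YAP siRNA values -0.03 and -0.11. SCAP, their escort out of the endoplasmic reticulum, had 12.2 FPKM with IRF3 siRNA and 12.1 FPKM with YAP siRNA, against 11.1 FPKM in control cells.

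INSIG1 is a target gene of SREBPs whose product holds SCAP back. It had 23.2 FPKM with IRF3 siRNA and 23.7 FPKM with YAP siRNA, against 31.4 FPKM in control cells. Its count ratio to control was 0.738 with IRF3 siRNA (counting interval 0.702 to 0.776) and 0.755 with YAP siRNA (0.718 to 0.794), and its log2 ratios of -0.42 and -0.39 were -0.36 and -0.38 with that trend removed. INSIG2, its paralogue, had log2 ratios of -0.01 in IRF3 siRNA cells and 0.11 in YAP siRNA cells. Of the SREBP-cleaving proteases, MBTPS1 had log2 ratios of -0.18 in IRF3 siRNA cells and -0.14 in YAP siRNA cells, and MBTPS2, below the minimum level, had 0.722 FPKM with IRF3 siRNA and 0.645 FPKM with YAP siRNA, against 1.08 FPKM in control cells. The count ratio of MBTPS2 was 0.672 with IRF3 siRNA (0.514 to 0.875) and 0.600 with YAP siRNA (0.453 to 0.791). The median over the 6 regulators kept was -0.10 in IRF3 siRNA cells and -0.05 in YAP siRNA cells, and with DESeq2 size factors it was 0.01 and 0.03, still below the medians of all genes, 0.07 and 0.05.

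The mevalonate enzymes did not lie on 1 side of control. HMGCS1, the cytosolic HMG-CoA synthase at the head of the branch, was lower, with 31.3 FPKM in IRF3 siRNA cells and 33.5 FPKM in YAP siRNA cells, against 40.8 FPKM in control cells. Its count ratio was 0.768 with IRF3 siRNA (0.733 to 0.805) and 0.821 with YAP siRNA (0.784 to 0.860). PMVK, the phosphomevalonate kinase, was higher, with 66.7 FPKM in IRF3 siRNA cells and 58.9 FPKM in YAP siRNA cells, against 50.2 FPKM in control cells. Its count ratios were 1.33 (1.22 to 1.45) and 1.17 (1.07 to 1.28), but with the trend in gene properties removed its log2 ratios were 0.12 with IRF3 siRNA and -0.02 with YAP siRNA. FDPS, the farnesyl diphosphate synthase, had 40.3 FPKM with IRF3 siRNA and 38.2 FPKM with YAP siRNA, against 31.1 FPKM in control cells. Its log2 ratios were 0.36 and 0.29, and 0.25 and 0.19 with that trend removed. FDPS shares exon sequence with RUSC1-AS1. With the counts of overlapping genes summed, its log2 ratios were 0.29 with IRF3 siRNA and 0.21 with YAP siRNA.

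ACAT2, the cytosolic acetoacetyl-CoA thiolase, had 12.2 FPKM with IRF3 siRNA and 10.9 FPKM with YAP siRNA, against 8.38 FPKM in control cells. Its exons overlap those of TCP1 on the other strand, and no source used here states whether the counts use strand. With the counts of both genes summed, the log2 ratio of 0.49 with IRF3 siRNA became -0.07 and that of 0.34 with YAP siRNA became 0.05. MVD, the mevalonate diphosphate decarboxylase, had 14.4 FPKM with IRF3 siRNA and 11.4 FPKM with YAP siRNA, against 12.2 FPKM in control cells, so it was above control with IRF3 siRNA and below it with YAP siRNA. MVK, the mevalonate kinase, had log2 ratios of 0.19 in IRF3 siRNA cells and 0.07 in YAP siRNA cells, and IDI1, the isopentenyl diphosphate isomerase, had -0.06 and -0.08. The median of the 7 enzymes was 0.22 in IRF3 siRNA cells and 0.07 in YAP siRNA cells, and 0.12 and -0.01 with the trend removed.

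Among the enzymes of squalene and sterols, LSS and EBP were higher and SQLE was lower with both siRNAs. LSS (chromosome 21, 46188141 to 46228824, hg38), the lanosterol synthase that closes the sterol rings, had 22.4 FPKM with IRF3 siRNA and 18.0 FPKM with YAP siRNA, against 14.1 FPKM in control cells. Its count ratio to control was 1.58 with IRF3 siRNA (1.52 to 1.66) and 1.28 with YAP siRNA (1.22 to 1.33). EBP (chromosome X, 48521158 to 48528716), the sterol isomerase that binds emopamil, had 11.8 FPKM with IRF3 siRNA and 15.4 FPKM with YAP siRNA, against 9.57 FPKM in control cells. Its count ratio was 1.23 with IRF3 siRNA (1.10 to 1.38) and 1.61 with YAP siRNA (1.44 to 1.79). The order of the siRNA libraries was thus opposite for LSS and EBP. With the trend in gene properties removed, both came just under 1.5-fold, LSS at a log2 ratio of 0.58 with IRF3 siRNA and EBP at 0.52 with YAP siRNA.

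SQLE is often described as a rate-limiting sterol enzyme, and its levels are given above. Its count ratio to control was 0.799 with IRF3 siRNA (0.778 to 0.821) and 0.850 with YAP siRNA (0.828 to 0.873). FDFT1, the squalene synthase, had 23.9 FPKM with IRF3 siRNA and 29.8 FPKM with YAP siRNA, against 28.3 FPKM in control cells. MSMO1, the methylsterol oxidase, had 36.5 FPKM with IRF3 siRNA and 46.8 FPKM with YAP siRNA, against 47.3 FPKM in control cells. Both were lower than control with IRF3 siRNA, at log2 ratios of -0.23 and -0.37, while with YAP siRNA they were at 0.07 and -0.02. MSMO1 was at 0.07 with YAP siRNA under TMM scaling, beside 0.06 for the median of all genes. The ratios of the 6 sterol enzymes that remain lay on both sides of control. CYP51A1, the lanosterol demethylase, and SC5D, the sterol desaturase, had log2 ratios of -0.21 and -0.27 with IRF3 siRNA and -0.23 for both with YAP siRNA. TM7SF2, a sterol reductase, had -0.10 in IRF3 siRNA cells and 0.05 in YAP siRNA cells, and 0.20 and 0.21 when summed with VPS51, whose exons it overlaps. The log2 ratios of NSDHL and HSD17B7, which act in the removal of methyl groups, and of DHCR7, a reductase of the last steps, lay between -0.02 and 0.16. The group's median was -0.10 with IRF3 siRNA and 0.04 with YAP siRNA.

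On the FPKM scale the lowest ratios of the set to control were those of 1 gene of sterol export. ABCA1 (chromosome 9, 104781002 to 104928237, hg38), the exporter that loads cholesterol onto apolipoprotein and a target gene of the liver X receptors, had 3.55 FPKM with IRF3 siRNA and 4.26 FPKM with YAP siRNA, against 7.48 FPKM in control cells. These levels came from 634, 733 and 1246 counts in the IRF3 siRNA, YAP siRNA and control libraries. The count ratio to control was 0.475 with IRF3 siRNA (0.431 to 0.523) and 0.570 with YAP siRNA (0.520 to 0.625). On the log2(FPKM + 1) scale the ratios were -0.90 and -0.69. With a pseudocount of 0.1 the IRF3 siRNA value was -1.05 and passed 2-fold, and with the trend in gene properties removed the values were -0.57 and -0.41, short of 1.5-fold.

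On the FPKM scale the ratios of the liver X receptors to control were not below 0. NR1H2, the widely expressed receptor, had log2 ratios of 0.05 in IRF3 siRNA cells and 0.04 in YAP siRNA cells, and NR1H3, which shares exon sequence with ACP2, had 0.10 and 0.21. As a ratio of counts NR1H3 was at 1.12 with IRF3 siRNA (0.954 to 1.31) and 1.28 with YAP siRNA (1.09 to 1.49). SOAT1, which esterifies cholesterol for storage, had 1.28 FPKM with IRF3 siRNA and 1.85 FPKM with YAP siRNA, against 2.19 FPKM in control cells. Its count ratio was 0.584 with IRF3 siRNA (0.494 to 0.690) and 0.843 with YAP siRNA (0.724 to 0.980). Its log2 ratios were -0.49 in IRF3 siRNA cells and -0.16 in YAP siRNA cells, and -0.19 and 0.08 with the trend in gene properties removed. STARD4, a soluble sterol carrier, had a mean just above the minimum level and log2 ratios of -0.25 and -0.19. The median of the 5 genes of transport, storage and liver X receptors was -0.25 in IRF3 siRNA cells and -0.16 in YAP siRNA cells, and -0.05 and 0.02 with the trend removed.

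Fatty acid synthesis from acetyl-CoA was lower at ACACA and little different at FASN. ACACA, which makes malonyl-CoA, had 9.40 FPKM with IRF3 siRNA and 10.2 FPKM with YAP siRNA, against 14.4 FPKM in control cells. Its count ratio to control was 0.652 with IRF3 siRNA (0.623 to 0.683) and 0.711 with YAP siRNA (0.680 to 0.743), and the log2 ratios of -0.57 and -0.46 were -0.30 and -0.22 with the trend removed. FASN, whose levels stand above, had log2 ratios of -0.05 in IRF3 siRNA cells and -0.10 in YAP siRNA cells, and with TMM scaling 0.05 and -0.01, beside 0.06 for the median of all genes in both. With the trend removed its values were -0.11 and -0.08. ACSS2, which makes acetyl-CoA from acetate, had log2 ratios of 0.17 in IRF3 siRNA cells and 0.10 in YAP siRNA cells. ACACB, whose malonyl-CoA restrains fatty acid entry into mitochondria, had -0.12 and -0.10.

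Of the modifying enzymes, SCD was lower and ELOVL1 higher. SCD (chromosome 10, 100347124 to 100364834) had a count ratio to control of 0.642 with IRF3 siRNA (0.635 to 0.649) and 0.716 with YAP siRNA (0.708 to 0.723). Its log2 ratios were -0.64 in IRF3 siRNA cells and -0.48 in YAP siRNA cells, and -0.55 and -0.43 with the trend in gene properties removed. ELOVL1 (chromosome 1, 43363397 to 43368074), the elongase of very long saturated chains, had 18.5 FPKM with IRF3 siRNA and 16.8 FPKM with YAP siRNA, against 12.1 FPKM in control cells. Its count ratio was 1.53 with IRF3 siRNA (1.42 to 1.64) and 1.39 with YAP siRNA (1.29 to 1.49), and its log2 ratio with IRF3 siRNA, 0.57, was just under 1.5-fold. With the trend removed the ELOVL1 values were 0.43 with IRF3 siRNA and 0.32 with YAP siRNA. FADS1, a desaturase of polyunsaturated chains whose exons overlap those of FADS2, had log2 ratios of -0.15 in IRF3 siRNA cells and -0.18 in YAP siRNA cells, and 0.11 and 0.01 with the counts of overlapping genes summed.

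All 4 genes for fatty acid activation and lipin 1 were below control with both siRNAs. ACSL3, an acyl-CoA synthetase of lipid droplets, had 6.43 FPKM with IRF3 siRNA and 8.04 FPKM with YAP siRNA, against 11.1 FPKM in control cells. LPIN1, a phosphatidate phosphatase of triglyceride synthesis that also acts in the nucleus, had 1.36 FPKM with IRF3 siRNA and 1.63 FPKM with YAP siRNA, against 2.80 FPKM in control cells. ACSL1, a synthetase found at mitochondria and the endoplasmic reticulum, had 11.0 FPKM with IRF3 siRNA and 13.6 FPKM with YAP siRNA, against 15.8 FPKM in control cells. In each of these the IRF3 siRNA library was lowest and the control library highest. Count ratios to control with IRF3 siRNA were 0.580 for ACSL3 (0.536 to 0.628), 0.487 for LPIN1 (0.433 to 0.547) and 0.695 for ACSL1 (0.658 to 0.734). With YAP siRNA they were 0.726 (0.673 to 0.783), 0.582 (0.520 to 0.650) and 0.861 (0.817 to 0.907). ACSL4, which prefers arachidonate, had log2 ratios of -0.31 in IRF3 siRNA cells and -0.23 in YAP siRNA cells. With the trend in gene properties removed, the ACSL4 values were -0.04 and -0.01. The median of the 4 was -0.59 in IRF3 siRNA cells and -0.33 in YAP siRNA cells, and -0.33 and -0.15 with the trend removed.

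Longer genes and genes of low GC content had lower ratios to control in the whole table, and the set followed the same course. Over the 40 genes Spearman's rho between the log2 ratio and exon length was -0.42 in IRF3 siRNA cells and -0.51 in YAP siRNA cells, and over 11066 genes it was -0.34 and -0.38. For GC content rho was 0.60 and 0.48 over the 40 genes and 0.41 and 0.28 over all genes. Genes are not independent replicates, and all values share the same 3 libraries. An additive trend in level, exon length and GC content accounted for 23.2% of the variance of the log2 ratio with IRF3 siRNA and 18.9% with YAP siRNA. The 4 genes at least 1.5-fold lower had a median exon length of 9295 bases, and ABCA1 and LPIN1 have 11350 and 11861 bases. The 22 genes below control with both siRNAs had a median of 6710 bases and a GC content of 46.4%, and the 13 above control with both had 4160 bases and 57.4%. With the trend removed, ACAT2 at 0.60 with IRF3 siRNA was the only gene of the set 1.5-fold different from control, subject to its overlap with TCP1. Among all genes with a length and GC content, 1.62% were then at least 1.5-fold higher and 2.52% lower with IRF3 siRNA, and 1.67% and 2.49% with YAP siRNA. The lowest of the set with IRF3 siRNA were ABCA1 at -0.57 and SCD at -0.55. The part of these gene properties in the ratios was not tested.

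**Figure D3:**
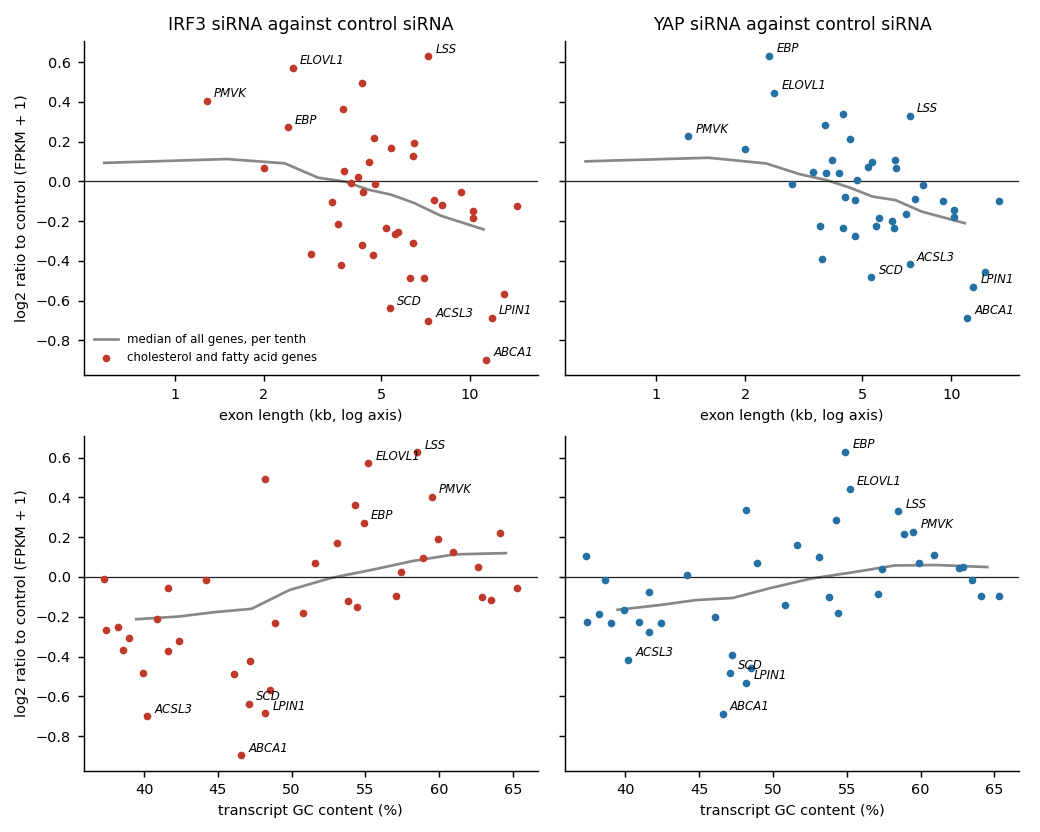
Log2 ratio to control on the FPKM + 1 scale against exon length in kb (log axis) and transcript GC content in percent, for IRF3 siRNA and YAP siRNA. Points are the 40 genes and the grey line joins the medians of all genes in 10 equal bins. The ratios of the 40 genes are lower at greater length and higher at greater GC content, with rho of -0.42 and 0.60 for IRF3 siRNA.

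Set directly against each other, the siRNA libraries differed less. No gene of the set was 1.5-fold different between IRF3 siRNA and YAP siRNA cells, where 1.18% of all genes were at least 1.5-fold higher and 1.28% lower, and 0.297% and 0.315% at 2-fold. The highest ratios were those of MVD and LSS, at log2 ratios of 0.31 and 0.30. PMVK followed at 0.18, ACAT2 at 0.15 and ELOVL1 at 0.13, and ACAT2 was at -0.12 when summed with TCP1. The lowest were EBP at -0.36, MSMO1 at -0.35, SOAT1 at -0.32, FDFT1 at -0.31 and ACSL1 at -0.29. Of the 11 squalene and sterol enzymes, 2 had a ratio above 0 and 9 below it, where 48.2% of all genes were above 0. LSS was higher in IRF3 siRNA cells, and CYP51A1, the other above 0, was at 0.01. FDFT1 and SQLE before LSS, and MSMO1 and EBP after it, were higher in YAP siRNA cells, with SQLE at -0.09. The mevalonate median was 0.12 and that of the squalene and sterol enzymes -0.09, and these were 0.08 and -0.05 with the trend in gene properties removed. That trend accounted for 3.12% of the variance here.

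The counting interval of this direct ratio was wholly above 1 for 7 of 40 genes (16% of all genes) and wholly below 1 for 14 (15.6%). MVD had a count ratio of 1.26 (1.18 to 1.35) and LSS 1.24 (1.19 to 1.29). SOAT1 had the lowest count ratio, 0.693 (0.58 to 0.82). EBP had 0.766 (0.694 to 0.845), MSMO1 0.780 (0.740 to 0.822) and FDFT1 0.803 (0.776 to 0.831). SCD had 0.897 (0.886 to 0.907), INSIG1 0.978 (0.928 to 1.03), ABCA1 0.833 (0.748 to 0.927) and FASN 1.03 (1.01 to 1.05). Of the genes named here, INSIG1 was the only one whose interval held 1.

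**Figure D4:**
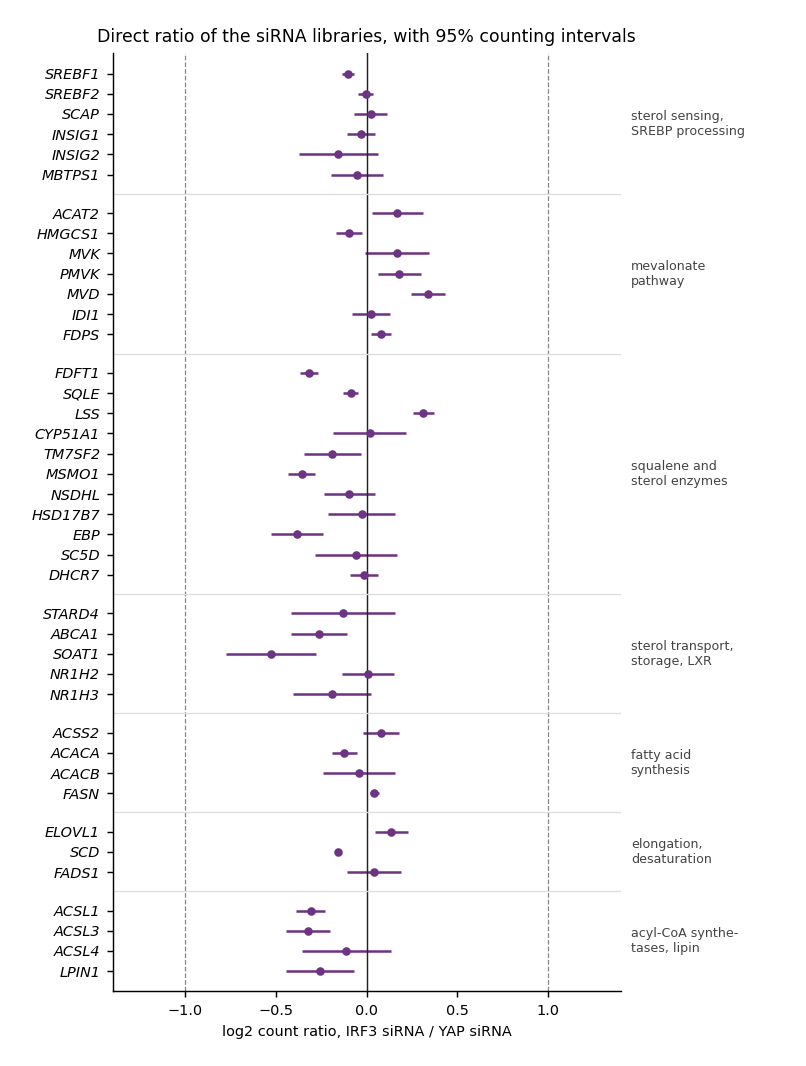
Log2 ratio of counts, IRF3 siRNA over YAP siRNA, for the 40 genes kept, with 95% counting intervals, grouped by role. MVD and LSS lie furthest right (count ratios of 1.26 and 1.24), and furthest left are SOAT1, EBP and MSMO1 (0.693, 0.766 and 0.780).

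Further genes of lipid metabolism were read from 5 other lists with 96 genes in the table, of which 80 were kept. Past 2-fold against control were 1 higher gene with each siRNA, CYB5R3 in both cases, and 1 lower gene with IRF3 siRNA, LIPA, which was also the 1 gene past 2-fold in the direct ratio. Among all genes 0.387% were 2-fold higher and 0.612% lower with IRF3 siRNA, and 0.351% and 0.468% with YAP siRNA. In the direct ratio 0.315% were 2-fold lower. Counts of 1 gene are too few to set apart from these shares. CYB5R3, a cytochrome b5 reductase that passes electrons to desaturases, had 30.2 FPKM with IRF3 siRNA and 30.5 FPKM with YAP siRNA, against 13.8 FPKM in control cells. LIPA, the lysosomal acid lipase, had 13.0 FPKM with IRF3 siRNA and 34.8 FPKM with YAP siRNA, against 33.5 FPKM in control cells, and shares exon sequence with IFIT2, an interferon-induced gene. The median log2 ratio of the 80 genes was -0.03 with IRF3 siRNA and 0.05 with YAP siRNA, beside -0.11 and -0.08 for the cholesterol and fatty acid synthesis genes. The 2 largest ratios of each list in each comparison are given next.

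Among sterol trafficking genes, MYLIP, a ubiquitin ligase induced by liver X receptors, had a log2 ratio of -0.60 with IRF3 siRNA and -0.19 in the direct ratio. OSBP, an oxysterol-binding protein, had -0.46 and NPC2, the soluble cholesterol carrier of lysosomes, 0.56 with YAP siRNA. FNTB, a farnesyltransferase subunit that shares exons with a readthrough gene, had 0.70 with IRF3 siRNA and CYB5B, a cytochrome b5, -0.97 with YAP siRNA. In the direct ratio of IRF3 siRNA over YAP siRNA these last genes had 0.86 and 0.82. The fatty acid elongation gene HACD2 had -0.66 with IRF3 siRNA and -0.59 in the direct ratio, and HACD1 had -0.21 there. SCD5, the other desaturase of the SCD kind, had -0.37 in IRF3 siRNA cells and -0.31 in YAP siRNA cells, and HACD3 had 0.30 with YAP siRNA.

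LPIN2, the paralogue of LPIN1, had the lowest ratio of the glycerolipid list with both siRNAs. It had 4.60 FPKM with IRF3 siRNA and 5.66 FPKM with YAP siRNA, against 8.73 FPKM in control cells, at log2 ratios of -0.80 and -0.55. PEMT, which methylates phosphatidylethanolamine, had 0.41 with IRF3 siRNA and AGPAT2, an acyltransferase, 0.27 with YAP siRNA, and the direct ratios of LPIN2 and PEMT were -0.25 and 0.19. In fatty acid oxidation, ECI1 and ACADVL had 0.41 and 0.40 with IRF3 siRNA, and ACADS and ACADVL had 0.44 and 0.39 with YAP siRNA. ECI2 and ACAA2 had -0.16 and -0.14 in the direct ratio. The oxidation list had a median of -0.01 in IRF3 siRNA cells and 0.11 in YAP siRNA cells over 19 genes.

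**Figure D5:**
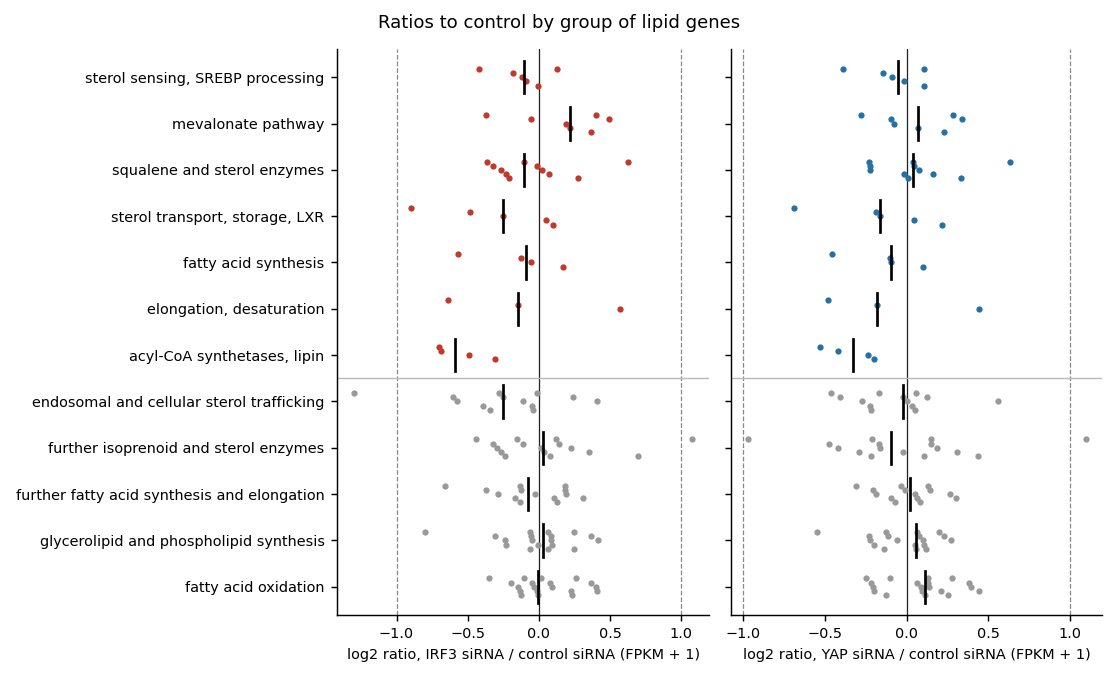
Log2 ratio to control (FPKM + 1) of every kept gene in the 7 role groups of the cholesterol and fatty acid synthesis genes and the 5 other lipid lists, with IRF3 siRNA at the left and YAP siRNA at the right. Points are genes, black marks are group medians and dashed lines mark 2-fold. The acyl-CoA synthetases and LPIN1 have the lowest medians, -0.59 and -0.33, and furthest from 0 lie LIPA and CYB5R3 with IRF3 siRNA and CYB5R3 and CYB5B with YAP siRNA.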

How the data were processed

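RNA sequencing of 3 HGC-27 libraries, 1 per siRNA group, was analysed from 1 deposited table. It holds FPKM values and raw counts per gene made by the authors, per the file headers. Alignment used TopHat2 2.0.9 on hg38, per the submitters' processing notes, while no source used here gives the gene counter, the annotation release or the strand setting. Of 45223 deposited FPKM values checked, 100% were within 1% of the counts scaled by column total and gene length. Each length was inferred from the gene's own deposited FPKM and count in the library where its count was highest. The check thus covers the scaling between libraries and not the gene lengths themselves.

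The 44 genes and all lists were chosen with earlier results of these data known. Log2 ratios used FPKM plus a pseudocount of 1 over genes with a mean of at least 1 FPKM, and a call was a 2-fold ratio. Count ratios scaled by column totals carry 95% exact (Clopper-Pearson) intervals. Given with FPKM in every library were SREBF1, SREBF2, SCAP, INSIG1, HMGCS1, SQLE, FASN, SCD and the 5 largest ratios in each direction per comparison. The other lipid lists gave the 2 largest ratios per comparison.

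Alternatives were a pseudocount of 0.1, no filter or 5 FPKM, centring on the median gene, thresholds of 1.5-fold and 3-fold, counts scaled with edgeR's TMM factors or DESeq2 size factors, subtraction of a spline trend (additive in level, GC content and exon length, 4 degrees of freedom for each), and pooled counts for genes with overlapping exons. Exon length, GC content and overlap came from GENCODE release 29, where 42 of the 44 genes had identical coordinates. Of the 40 genes kept, 17 share exon sequence with another counted gene. The calculations of ratios, calls and counting intervals were tested on simulated counts, and the other steps were not. Tools were Python 3.11.15, numpy 2.4.6, pandas 2.3.3, scipy 1.17.1, patsy 1.0.2, matplotlib 3.10.9, R 4.3.3, edgeR 4.0.16 and DESeq2 1.42.0.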

Additional observations from a re-analysis of the deposited data

How the results depend on the processing

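No paired analysis was possible because each group had 1 library, and for the same reason no library could be left out. The count of genes of the set past 2-fold, 0 in every comparison, moved with a pseudocount of 0.1, where 1 (ABCA1) was lower with IRF3 siRNA, and with the 1.5-fold threshold, where 1 was higher and 4 lower with IRF3 siRNA and 1 and 1 with YAP siRNA. It stayed at 0 under the other alternatives. The share of all genes past 2-fold was 1.0% for IRF3 siRNA, 0.82% for YAP siRNA (both against control) and 0.612% for the direct ratio. In that order it was 3.42%, 3.12% and 1.47% with a pseudocount of 0.1, 0.309%, 0.263% and 0.191% with no filter, 0.225%, 0.153% and 0.279% at 3-fold, and 7.48%, 6.22% and 2.46% at 1.5-fold. It was 1.92% and 1.66% with TMM scaling and 1.88% and 1.68% with DESeq2 size factors for IRF3 siRNA and YAP siRNA, and 0.27% with overlapping genes summed in the direct ratio. For the 69 ratios of the genes given in full, the yardstick was the counting interval on the log2 scale. A move was a change larger than the distance from the centre of that interval to its end. Of these ratios, 29 moved with TMM scaling and 29 with DESeq2 size factors, where 6 and 5 changed sign. These scalings also moved the median of all genes, to 0.06 and 0.07 with IRF3 siRNA (-0.03 by FPKM) and to 0.06 and 0.05 with YAP siRNA (-0.02 by FPKM), so the moves include that common shift. With the gene-property trend removed 32 moved and 5 changed sign. Of 21 medians of role groups, 6 changed sign with that trend removed, 2 with DESeq2 size factors, 1 with TMM scaling, 2 with overlapping genes summed and 1 with the 5 FPKM filter. Depth limits the genes near 1 FPKM, such as STARD4, with 203 to 263 counts per library. The causes of these moves were not tested.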
